A study of Mus musculus with 9 samples.

Results

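Interferon stimulated genes are the genes that cells switch on when they sense interferon or viral nucleic acid. A list of 49 such genes was followed across cultured mouse embryonic fibroblasts (MEFs) of 3 genotypes. Of the 49, 44 were measured, out of 19938 genes measured in all. A gene was measured where a probe set carried its symbol alone, and the brightest such probe set over the 9 arrays stood for it. No filter on low values was used, so none of the 44 was lost to one. Isg15, Igtp, Irgm2 and Gbp2 had only probe sets shared with another gene symbol, Ifi44 had no probe set listed under it, and these 5 were not analysed here.

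Triple mutant (TM) MEFs were mutated in ERO1α, ERO1β and PRDX4, which are thiol oxidases of the endoplasmic reticulum, and double mutant (DM) MEFs in ERO1α and ERO1β alone. Wild-type (WT) MEFs were their control. Each genotype had 3 arrays, and all cells were labelled as T antigen transformed MEFs on the C57B/L6 background. By the study's methods TM cells had the mutant alleles of Ero1α (m/m), of Ero1β (m/m) and of the X-linked Prdx4 (m/y), DM cells were m/m for each Ero1 gene with Prdx4 +/+, and control MEFs were m/+ for Ero1α, m/m for Ero1β and +/+ for Prdx4. The control there carried the Ero1β mutation too, whereas the labels call it wild-type. The Ero1 alleles are gene traps and the Prdx4 allele is a null. Whether the triplicates were grown from different embryos or cultures is not stated, so p-values measure only the spread between arrays, which may be technical. With each genotype possibly 1 line, genotype and line cannot be told apart.

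Levels are RMA values on the log2 scale, in which background was corrected, arrays were brought to a common scale and the probes of a probe set were summarised. Ero1a, the gene of ERO1α, averaged 9.06 in TM, 9.46 in DM and 11.86 in WT MEFs. Prdx4 averaged 6.30 in TM, 10.68 in DM and 10.56 in WT MEFs. Ero1b, the gene of ERO1β, averaged 7.94 in TM, 7.70 in DM and 7.65 in WT MEFs and passed the call in neither mutant. Of 14 measured fibroblast markers, 10 lay above the array median on all 9 arrays, among them Vim, Fn1 and Col1a1. Thy1 averaged 10.61 in TM, 7.42 in DM and 7.67 in WT MEFs and Postn 9.91 in TM, 8.91 in DM and 6.71 in WT MEFs, while Lum and Fap lay below the median on all 9 arrays, with Lum at 6.86 in TM, 4.91 in DM and 4.80 in WT and Fap at 6.92 in TM, 6.02 in DM and 5.88 in WT MEFs. Array medians ran over 7.62 to 7.72, and no array stood apart from its genotype.

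Type I interferons bind a receptor whose JAK kinases activate a transcription factor complex that includes STAT2 and IRF9. The complex binds the interferon stimulated response element (ISRE) in the promoters of its targets, while the response to type II interferon runs mainly through the gamma activated site (GAS). In fibroblasts the pathway is known as a first defence against viruses, and cytosolic RNA or DNA sensors can start it by inducing interferon β.

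Most of the measured genes sat higher in DM MEFs, and fewer of them did so in TM MEFs. A gene was called where limma's adjusted p was under 0.05 and the change over 1.5-fold. In DM MEFs, 20 of the 44 were called higher than in WT (45.5%), against 5.28% of all genes, and 2 were called lower (4.55%), against 5.67% of all genes. In TM MEFs, 11 of the 44 were called higher than in WT (25%), against 5.59% of all genes, and 1 was called lower (2.27%), against 3.56% of all genes. The median log2 fold change of the 44 was 0.54 in DM and 0.25 in TM MEFs, beside 0.02 and -0.03 over all genes. Both comparisons share the WT arrays. On the same arrays 7 of 14 markers of epithelium and mesothelium were called higher in DM (50%) and 0 in TM MEFs. Of the same markers, 1 was called lower in DM and 2 in TM MEFs. The part of these markers in the counts above was not tested.

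Set directly against DM MEFs, TM MEFs had 4 of the 44 called higher (9.09%), against 4.68% of all genes, and 9 called lower (20.5%), against 3.61% of all genes. The median log2 difference was -0.36, beside -0.05 over all genes. The mean level of the 44 genes per array ran over 10.10 to 10.16 in TM, 10.42 to 10.51 in DM and 9.73 to 9.75 in WT MEFs. These 3 ranges did not overlap. Gene by gene, all DM arrays lay above all WT arrays for 37 of the 44 and below them for 3. Over all 19938 genes these counts were 4496 and 4758. In TM against WT they were 24 and 6, beside 3650 and 5007 of all genes. In TM against DM MEFs they were 5 and 30, beside 3683 and 4309. A lack of overlap for a single gene was thus common on these arrays. As bulk RNA was measured, a change in the share of cells that express a gene and a change in its level per cell cannot be told apart.

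The pattern of calls split the genes. 9 were called higher in both mutants (Ifit3, Mx2, Gbp3, Iigp1, Tlr3, Stat2, Trim30a, Usp18 and Sp100). Another 10 were called higher in DM MEFs with no call in TM MEFs, of which 5 were also called lower in TM than in DM MEFs. Oas3 was called higher in DM and lower in TM MEFs. Rsad2 and Psmb9 were called higher in TM MEFs only, and Mx1 and Oasl1 lower in DM MEFs only. Of the 44, 17 were called in none of the 3 comparisons. Both mutants were set against the same WT arrays, so a deviation of those arrays enters both calls. Shares of all genes with these joint patterns were not counted, and whether the pattern counts are unusual was not tested. By means alone, 24 of the 44 (54.5%) ran DM over TM over WT, an order held by 19.8% of all genes.

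**Figure D1:**
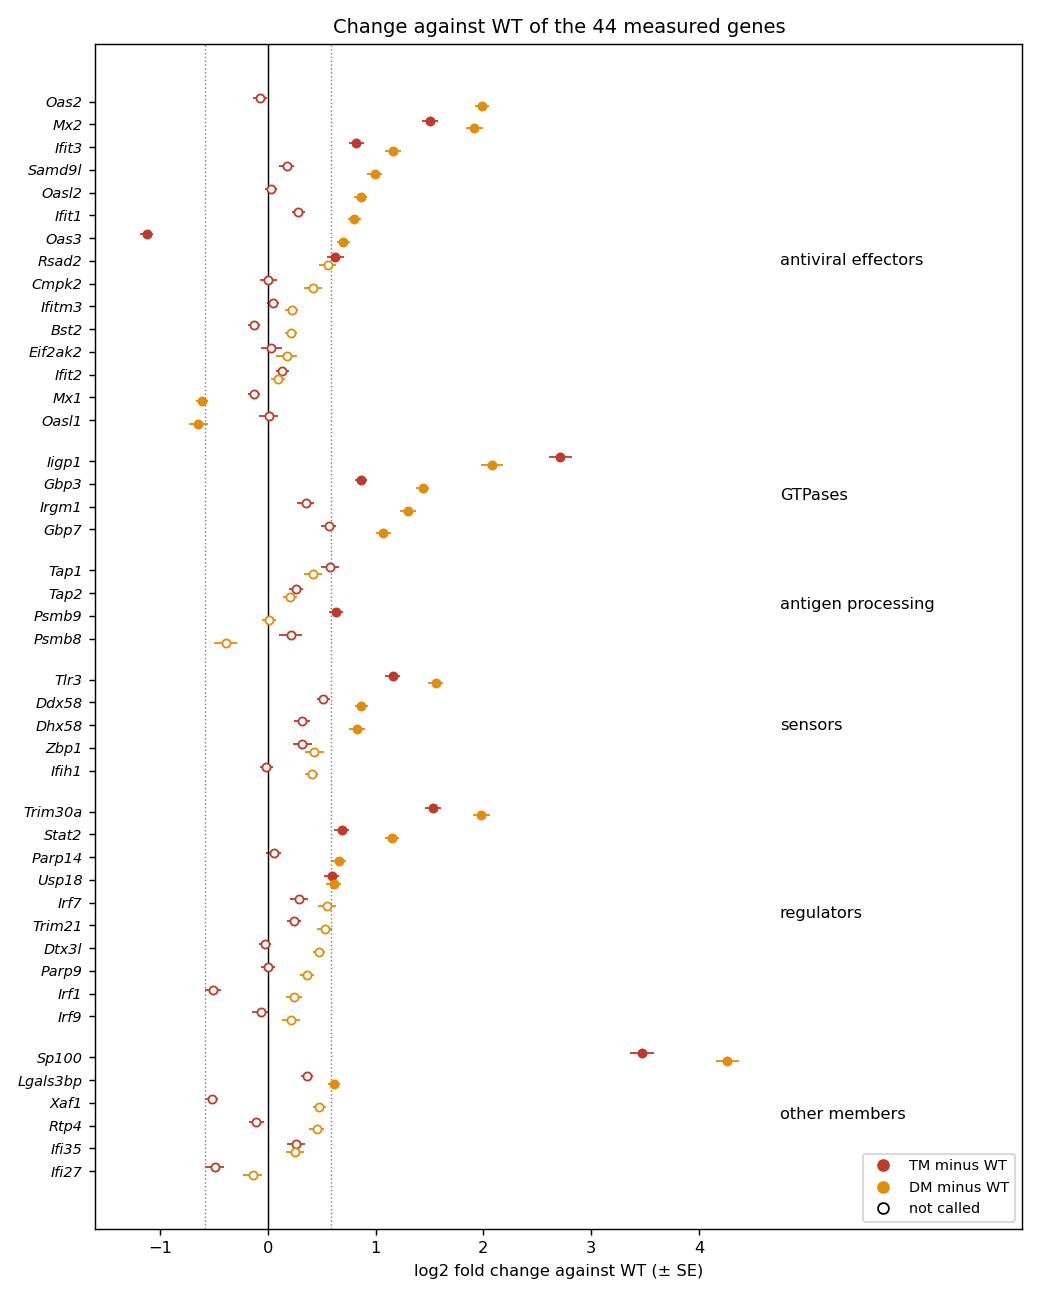
Log2 fold change against WT (x axis, with limma SE) of the 44 measured interferon stimulated genes, in rows grouped by class, for TM (red) and DM (orange) MEFs; filled points were called and dotted lines mark 1.5-fold. Most DM points lie right of the TM points of the same gene, with Iigp1 among the exceptions, and Oas3 has its points on opposite sides of 0.

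The promoter windows below are those of the genes with the largest called changes for which a window was held, and they show where the ISRE letters stand and where they are missing. Each runs from 250 bases before to 50 bases after the RefSeq start (GRCm38.p6), 5′ to 3′ on the gene's strand, and capitals mark the ISRE core, which is GAAA, any pair of bases and GAAA, or the same read on the other strand. Trim30a lies at chr7:104446076-104446375 on the minus strand, Oas3 at chr5:120777610-120777909 on the minus strand, Gbp3 at chr3:142559794-142560093 on the plus strand, Tlr3 at chr8:45410331-45410630 on the minus strand and Sp100 at chr1:85649738-85650037 on the plus strand. Where a gene had several windows, the one with the most matches was taken, which favours the motif.
Trim30a: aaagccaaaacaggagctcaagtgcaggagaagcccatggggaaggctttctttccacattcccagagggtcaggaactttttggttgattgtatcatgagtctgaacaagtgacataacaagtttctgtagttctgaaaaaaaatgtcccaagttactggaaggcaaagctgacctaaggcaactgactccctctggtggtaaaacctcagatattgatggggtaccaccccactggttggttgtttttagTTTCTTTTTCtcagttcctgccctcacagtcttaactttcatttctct
Oas3: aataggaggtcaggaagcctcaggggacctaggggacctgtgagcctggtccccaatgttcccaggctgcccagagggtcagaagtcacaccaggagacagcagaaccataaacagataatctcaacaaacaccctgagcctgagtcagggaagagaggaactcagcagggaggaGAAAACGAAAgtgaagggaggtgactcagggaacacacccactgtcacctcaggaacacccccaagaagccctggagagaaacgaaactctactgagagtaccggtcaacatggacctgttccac
Gbp3: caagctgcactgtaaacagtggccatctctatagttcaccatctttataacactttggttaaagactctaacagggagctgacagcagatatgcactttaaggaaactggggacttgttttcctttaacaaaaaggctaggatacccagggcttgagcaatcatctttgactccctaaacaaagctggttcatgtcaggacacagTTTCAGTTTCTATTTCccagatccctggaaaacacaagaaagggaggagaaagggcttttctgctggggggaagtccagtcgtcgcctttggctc
Tlr3: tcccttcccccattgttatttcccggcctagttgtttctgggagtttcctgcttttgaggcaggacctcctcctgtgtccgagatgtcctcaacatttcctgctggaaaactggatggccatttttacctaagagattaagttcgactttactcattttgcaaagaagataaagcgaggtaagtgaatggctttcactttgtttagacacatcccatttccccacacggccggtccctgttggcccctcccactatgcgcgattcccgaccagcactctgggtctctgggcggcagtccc
Sp100: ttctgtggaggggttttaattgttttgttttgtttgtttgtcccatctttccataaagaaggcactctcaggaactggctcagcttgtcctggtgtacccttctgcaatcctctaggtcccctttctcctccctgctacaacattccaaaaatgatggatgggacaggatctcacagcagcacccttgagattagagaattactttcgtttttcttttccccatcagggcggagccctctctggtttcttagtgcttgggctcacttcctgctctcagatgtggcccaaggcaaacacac

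In these windows the Trim30a match began 2 bases after the start, the Oas3 match 75 bases before it, and Gbp3 had overlapping matches beginning 45 and 39 bases before it. The Tlr3 and Sp100 windows held none, which says only that these letters are not in them. Over all 32851 mouse promoter windows of this length, 3.44% held the ISRE core and 8.3% the GAS core, TTCNNNGAA, which reads the same on both strands. Windows were held for 32 of the 44 measured genes, 38 windows in all, of which 42.1% held the ISRE core and 21.1% the GAS core. Of the genes called higher in DM MEFs, 14 had a window, and 9 of these held the ISRE core and 1 the GAS core. Of the genes not called higher there, 18 had a window, and 6 held the ISRE core and 7 the GAS core. A match is a description of letters and not a measured binding site.

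Antiviral effectors act on viral RNA, proteins or entry. Of the 15 measured, 7 were called higher (46.7%) and 2 lower (13.3%) in DM MEFs. In TM MEFs 3 were called higher (20%) and 1 lower (6.67%). Over all genes, 5.28% were called higher and 5.67% lower in DM, and 5.59% higher and 3.56% lower in TM MEFs. The median log2 fold change of the 15 was 0.56 in DM and 0.03 in TM MEFs. Among them are genes of the OAS family, known for the 2-5A signal that activates RNase L.

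Oas2 read 8.84, 8.79 and 8.64 in TM, 10.75, 10.87 and 10.84 in DM and 8.83, 8.79 and 8.87 in WT MEFs. TM arrays lay among or below the WT arrays, whereas all DM arrays lay above both. The log2 fold change was 1.99 ± 0.06 (limma SE, n = 3 arrays each; adjusted p = 1.19e-10) in DM against WT, -0.07 ± 0.06 (adjusted p = 0.495) in TM against WT and -2.06 ± 0.06 (adjusted p = 1.26e-10) in TM against DM MEFs.

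Oas3 read 7.24, 7.35 and 7.18 in TM, 9.03, 9.13 and 9.07 in DM and 8.36, 8.37 and 8.40 in WT MEFs. The 3 genotypes did not overlap, with TM lowest and DM highest. Oas3 rose by 0.70 ± 0.06 in DM against WT (adjusted p = 1.36e-06), fell by 1.12 in TM against WT (SE 0.06, adjusted p = 1.66e-08) and fell by 1.82 in TM against DM MEFs (adjusted p = 1.99e-10). Oas1a and Oas1b, which are not among the 49 and were named after their values were seen, rose by 1.32 and 1.03 in DM against WT, had 0.39 and 0.21 with no call in TM against WT, and in TM against DM MEFs Oas1a fell by 0.93 and Oas1b fell by 0.82.

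Mx2, a dynamin-like GTPase that restricts viruses, read 8.93, 8.74 and 8.77 in TM, 9.20, 9.26 and 9.23 in DM and 7.23, 7.47 and 7.23 in WT MEFs. All mutant arrays lay above all WT arrays. The log2 fold change was 1.92 ± 0.08 (adjusted p = 9.05e-10) in DM and 1.51 ± 0.08 (adjusted p = 9.9e-09) in TM MEFs, and TM minus DM was -0.41 ± 0.08, under the fold limit. Its relative Mx1, which is defective in C57BL/6 and most other laboratory strains, averaged 7.22 in TM, 6.73 in DM and 7.35 in WT MEFs. These levels lay below the array median on all 9 arrays, and a filter on dim probe sets removed Mx1. Mx1 fell by 0.61 in DM MEFs (adjusted p = 2.29e-06, with no call without WT replicate 3) and differed by -0.13 in TM MEFs with no call.

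Ifit3, which belongs to a family that binds viral RNA, read 10.35, 10.31 and 10.36 in TM, 10.58, 10.63 and 10.85 in DM and 9.50, 9.47 and 9.59 in WT MEFs. All mutant arrays lay above all WT arrays. It rose by 1.16 ± 0.07 (adjusted p = 5.68e-08) in DM and by 0.82 ± 0.07 (adjusted p = 1.76e-06) in TM MEFs. Its family member Ifit1 rose by 0.80 in DM MEFs, with 0.28 and no call in TM MEFs, and Ifit2 had changes of 0.10 in DM and 0.14 in TM MEFs with no call.

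Oasl2 rose by 0.86 and Samd9l by 0.99 in DM against WT, with 0.03 and 0.18 in TM against WT, neither of them called, and in TM against DM MEFs Oasl2 fell by 0.83 and Samd9l fell by 0.82. Oasl1, an inhibitor of IRF7 translation in mice, went the other way and fell by 0.64 in DM against WT, with 0.01 in TM against WT and 0.66 in TM against DM MEFs, both calls being lost without DM replicate 2. Rsad2, which makes the antiviral nucleotide ddhCTP, rose by 0.63 in TM MEFs, while its change of 0.56 in DM MEFs lay just under the fold limit and passed it without WT replicate 2, without DM replicate 2 or with cyclic loess. With median centring Rsad2 lost its call in TM MEFs. Bst2, Cmpk2, Eif2ak2, which encodes the kinase PKR, and Ifitm3 were called in none of the comparisons, at changes of 0.18 to 0.42 in DM and -0.13 to 0.05 in TM MEFs.

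**Figure D2:**
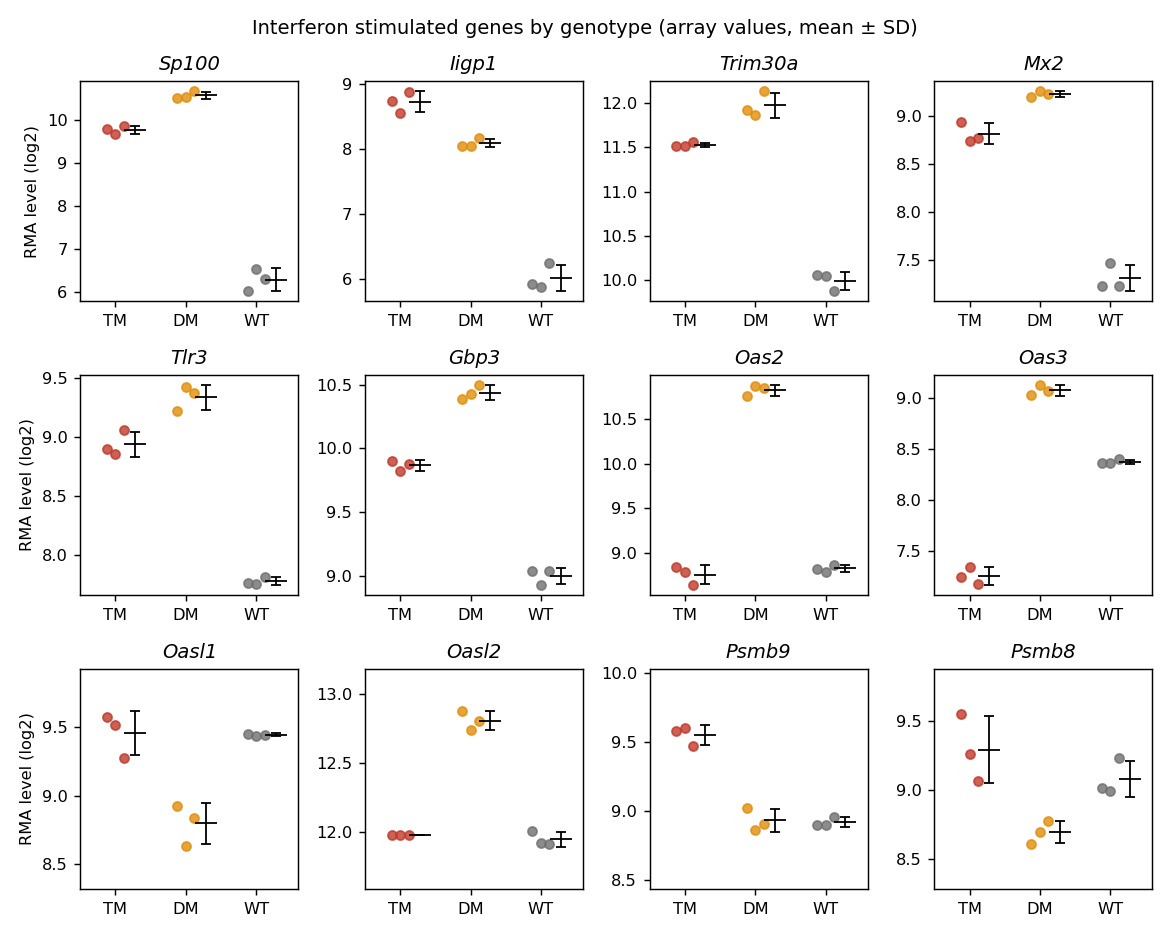
RMA levels (log2, y axis) of 12 interferon stimulated genes on each TM (red), DM (orange) and WT (grey) array, with genotype mean and SD in black and a separate scale in each panel. Sp100, Iigp1, Mx2 and Tlr3 lie above WT in both mutants, Oas2 and Oasl2 in DM MEFs only, and Oas3 on opposite sides of WT.

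The interferon inducible GTPases act on the vacuoles and membranes of intracellular pathogens. All 4 measured were called higher in DM MEFs (100%, against 5.28% of all genes). In TM MEFs 2 of them were called higher (50%, against 5.59% of all genes). Their median log2 fold change was 1.37 in DM and 0.72 in TM MEFs. Iigp1, an immunity-related GTPase of vacuoles, read 8.75, 8.56 and 8.89 in TM, 8.05, 8.05 and 8.17 in DM and 5.93, 5.87 and 6.25 in WT MEFs. The 3 genotypes did not overlap, with TM highest. Iigp1 rose by 2.08 ± 0.10 (adjusted p = 6.7e-09) in DM and by 2.72 ± 0.10 (adjusted p = 5.93e-10) in TM MEFs, and was the only one of the 9 genes called higher in both that was also called higher in TM than in DM MEFs, by 0.64 ± 0.10 (adjusted p = 0.000399), a call lost without TM replicate 3.

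Gbp3, a guanylate-binding protein, read 9.90, 9.82 and 9.88 in TM, 10.39, 10.42 and 10.50 in DM and 9.04, 8.93 and 9.03 in WT MEFs. The genotypes did not overlap. It rose by 1.44 ± 0.06 (adjusted p = 1.05e-09) in DM and by 0.87 ± 0.06 (adjusted p = 1.51e-07) in TM MEFs, and its TM minus DM of -0.57 was called only without DM replicate 1, without TM replicate 1 or with quantile normalization.

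Irgm1, a regulator of the immunity-related GTPases, read 11.34, 11.22 and 11.38 in TM, 12.20, 12.28 and 12.30 in DM and 10.82, 11.12 and 10.94 in WT MEFs. Its TM arrays stood between the others without overlap. It rose by 1.30 ± 0.08 (adjusted p = 4.3e-08) in DM MEFs, had 0.35 ± 0.08 and no call in TM against WT, and fell by 0.95 in TM against DM MEFs (adjusted p = 1.15e-06). Gbp7 read 10.13, 10.17 and 10.13 in TM, 10.67, 10.49 and 10.78 in DM and 9.60, 9.55 and 9.58 in WT MEFs, with no overlap. It rose by 1.07 ± 0.07 (adjusted p = 1.05e-07) in DM MEFs, and its 0.57 in TM MEFs fell just short of the fold limit, which it passed with cyclic loess.

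The antigen processing genes cut and carry peptides for MHC class I. Of the 4, 0 were called in DM against WT MEFs, with a median of 0.11. Over all genes 5.28% were called higher and 5.67% lower there, so 0 of 4 is near those shares. By adjusted p alone, 3 of the 4 passed in DM MEFs, Tap1 and Tap2 higher and Psmb8 lower. At that looser limit 7340 of all 19938 genes passed in either direction. In TM MEFs 1 was called higher than in WT (25%, against 5.59% of all genes). Set against DM MEFs, 2 were called higher in TM MEFs (50%, against 4.68% of all genes). The medians were 0.42 against WT and 0.38 against DM MEFs. Psmb9, a catalytic subunit of the immunoproteasome, read 9.58, 9.60 and 9.47 in TM, 9.03, 8.86 and 8.91 in DM and 8.90, 8.90 and 8.96 in WT MEFs. All TM arrays lay above the others, and DM and WT arrays overlapped. It rose by 0.63 ± 0.06 (adjusted p = 5.53e-06) in TM against WT and by 0.62 ± 0.06 (adjusted p = 7.27e-06) in TM against DM MEFs, with 0.01 ± 0.06 in DM against WT. With median centring its call against WT was lost.

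Psmb8, another catalytic subunit, read 9.55, 9.26 and 9.06 in TM, 8.61, 8.69 and 8.77 in DM and 9.01, 8.99 and 9.23 in WT MEFs. TM and WT arrays overlapped, and DM arrays lay below both. It rose by 0.60 ± 0.11 (adjusted p = 0.000948) in TM against DM MEFs and was called in neither mutant against WT. The call was lost without DM replicate 1 and without TM replicate 1. The peptide transporter subunits Tap1 and Tap2 were called nowhere. Tap1 had 0.42 in DM and 0.58 in TM MEFs, just under the fold limit and past it without WT replicate 3, TM replicate 2 or TM replicate 3 and with quantile normalization or cyclic loess, and Tap2 had 0.21 in DM and 0.26 in TM MEFs.

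Of the 5 sensors of nucleic acid, 3 were called higher in DM MEFs (60%, against 5.28% of all genes). In TM MEFs 1 was called higher (20%, against 5.59% of all genes). The medians were 0.83 in DM and 0.32 in TM MEFs. Tlr3, the endosomal sensor of double-stranded RNA, read 8.90, 8.86 and 9.06 in TM, 9.22, 9.42 and 9.37 in DM and 7.76, 7.76 and 7.82 in WT MEFs. The genotypes did not overlap. Tlr3 rose by 1.56 ± 0.07 (adjusted p = 3.11e-09) in DM and by 1.16 ± 0.07 (adjusted p = 5.94e-08) in TM MEFs.

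Ddx58, which encodes RIG-I, read 11.99, 12.02 and 12.10 in TM, 12.35, 12.34 and 12.46 in DM and 11.46, 11.54 and 11.56 in WT MEFs. It rose by 0.87 ± 0.06 (adjusted p = 1.72e-07) in DM MEFs, with 0.52 and no call in TM MEFs, although the TM arrays all lay above the WT arrays. Dhx58, which encodes the RIG-I relative LGP2, read 9.64, 9.65 and 9.53 in TM, 10.17, 10.01 and 10.16 in DM and 9.15, 9.38 and 9.32 in WT MEFs, again without overlap. It rose by 0.83 ± 0.07 (adjusted p = 1.65e-06) in DM MEFs, with 0.32 and no call in TM MEFs. Ifih1, which encodes MDA5, and Zbp1, a sensor of Z-form nucleic acid, had 0.41 and 0.43 in DM MEFs and -0.01 and 0.32 in TM MEFs, with no call.

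The regulators include the transcription factors of the response and its feedback inhibitors. Of the 10, 4 were called higher in DM (40%, against 5.28% of all genes) and 3 in TM MEFs (30%, against 5.59%), none lower. In TM against DM MEFs 2 were called lower (20%, against 3.61% of all genes). The medians were 0.54 in DM and 0.15 in TM MEFs. Trim30a, which restrains TLR signalling to NF-κB in mice, read 11.51, 11.51 and 11.55 in TM, 11.92, 11.87 and 12.13 in DM and 10.06, 10.05 and 9.87 in WT MEFs. The genotypes did not overlap. It rose by 1.98 ± 0.08 (adjusted p = 6.86e-10) in DM and by 1.53 ± 0.08 (adjusted p = 8.48e-09) in TM MEFs.

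Stat2, a subunit of the factor that binds the ISRE, read 10.64, 10.60 and 10.49 in TM, 11.04, 10.98 and 11.10 in DM and 9.93, 9.96 and 9.78 in WT MEFs. The genotypes did not overlap. It rose by 1.15 ± 0.07 (adjusted p = 3.35e-08) in DM and by 0.69 ± 0.07 (adjusted p = 5.2e-06) in TM MEFs. Irf9, its partner in that factor, had 0.21 in DM and -0.07 in TM MEFs with no call. Usp18, which removes ISG15 from proteins and dampens receptor signalling, rose by 0.61 in DM and by 0.59 in TM MEFs, close above the fold limit in both. With median centring both calls were lost, as was that in DM without DM replicate 3 and that in TM without WT replicate 3.

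Irf1, a transcription factor of the response to type II interferon, read 9.47, 9.28 and 9.20 in TM, 10.10, 10.02 and 10.09 in DM and 9.78, 9.92 and 9.78 in WT MEFs. All TM arrays lay below the WT arrays and all DM arrays above them. It fell by 0.75 in TM against DM MEFs (SE 0.07, adjusted p = 5.42e-06), while its 0.24 in DM and -0.51 in TM against WT were not called. A dimmer probe set of Irf1 read 7.77 in TM, 7.90 in DM and 7.84 in WT MEFs, and with the mean of both probe sets the call was lost. Without TM replicate 1 Irf1 was called lower in TM than in WT MEFs.

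Parp14, an ADP-ribosyltransferase, read 9.43, 9.27 and 9.44 in TM, 9.89, 9.97 and 10.08 in DM and 9.34, 9.31 and 9.33 in WT MEFs. The DM arrays lay above all others, and TM and WT arrays overlapped. It rose by 0.66 ± 0.07 (adjusted p = 5.99e-06) in DM against WT and fell by 0.60 in TM against DM MEFs (adjusted p = 1.65e-05), the second call being lost with median centring, without DM replicate 3 and without TM replicate 2. Irf7, Trim21, Dtx3l and Parp9 were called nowhere, at 0.36 to 0.55 in DM and -0.02 to 0.29 in TM MEFs, although Irf7 passed in DM MEFs without DM replicate 2, with quantile normalization and with cyclic loess, and Trim21 with cyclic loess.

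Among the 6 other measured genes, 2 were called higher in DM MEFs (33.3%, against 5.28% of all genes). In TM MEFs 1 was called higher (16.7%, against 5.59% of all genes). The medians were 0.47 in DM and 0.08 in TM MEFs. Sp100, a component of PML nuclear bodies, had the largest change of the 44 in both mutants. It read 9.77, 9.67 and 9.86 in TM, 10.50, 10.52 and 10.66 in DM and 6.02, 6.55 and 6.32 in WT MEFs. The genotypes did not overlap, and the WT arrays lay below the array median. Sp100 rose by 4.26 ± 0.11 (adjusted p = 1.22e-11) in DM and by 3.47 ± 0.11 (adjusted p = 1.16e-10) in TM MEFs, and fell by 0.79 in TM against DM MEFs (adjusted p = 0.000118). Another probe set of the array is listed for Sp100 together with several predicted genes, and whether the probe set used here also reads related sequences was not tested.

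Xaf1, a pro-apoptotic protein, read 10.15, 10.05 and 10.02 in TM, 11.06, 11.14 and 11.00 in DM and 10.58, 10.64 and 10.56 in WT MEFs. WT arrays lay between the mutants with no overlap. It fell by 0.99 in TM against DM MEFs (SE 0.06, adjusted p = 6.16e-08), while 0.48 in DM and -0.52 in TM against WT were under the fold limit. Lgals3bp, a secreted glycoprotein, read 12.67, 12.67 and 12.70 in TM, 12.94, 12.85 and 13.00 in DM and 12.33, 12.29 and 12.32 in WT MEFs. It rose by 0.62 ± 0.06 (adjusted p = 2.5e-06) in DM MEFs, a call lost with median centring and without DM replicate 3, with 0.36 and no call in TM MEFs. Rtp4, Ifi35 and Ifi27 were called nowhere, at 0.45, 0.25 and -0.14 in DM and -0.11, 0.26 and -0.49 in TM MEFs, although Rtp4 was called lower in TM than in DM MEFs without TM replicate 3.

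**Figure D3:**
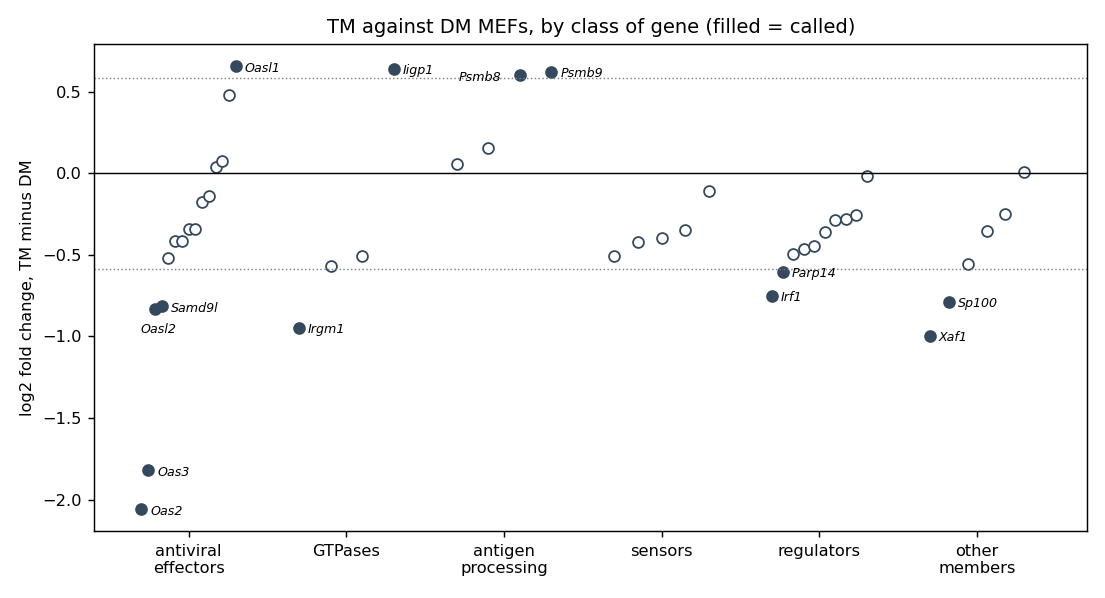
Log2 fold change of TM minus DM MEFs (y axis) for each of the 44 genes, by class, with called genes filled and named and dotted lines at 1.5-fold. The 9 genes called lower lie in the antiviral, GTPase, regulator and other classes, and the 2 called antigen processing genes, Psmb8 and Psmb9, lie above 0.

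The genomic neighbours of Sp100 and Iigp1 were looked up after these values were seen, 12 in all. Of these, 4 were called in at least 1 mutant and 8 in neither. Over all genes 5.28% were called higher and 5.67% lower in DM, and 5.59% higher and 3.56% lower in TM MEFs. The share of all genes called in at least 1 mutant was not counted. Sp140 and Gm4951 also belong to the further list of interferon stimulated genes given below. Beside Sp100, its relative Sp140 averaged 7.90 in TM, 7.47 in DM and 7.05 in WT MEFs and was called higher in TM MEFs (0.85, adjusted p = 0.000211) but not in DM MEFs (0.43). Next to Iigp1, Gm4841 rose by 0.59 in TM MEFs, with 0.22 and no call in DM MEFs, and Gm4951, the gene beyond it, rose by 1.80 in TM and by 0.91 in DM MEFs. BC023105, on the other side of Iigp1, averaged 6.91 in TM, 7.39 in DM and 4.36 in WT MEFs and rose by 2.54 in TM and by 3.03 in DM MEFs.

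Other genes of the pathway were read on the same arrays. Of 16 measured interferon genes, 0 were called in any comparison by limma, and 0 passed an unadjusted p under 0.05 with the fold limit. The looser p adds little, because the fold limit sets nearly all calls. Over all genes 1053 passed as higher in DM against WT by unadjusted p and 1052 by adjusted p. Their mean level per array was 6.43 to 6.66, below the array medians of 7.62 to 7.72, so a missing call says little. By adjusted p alone, Ifna12 (0.42) and Ifnz (0.31) were higher in DM against WT MEFs. Over all genes 3398 of 19938 were higher there by adjusted p alone, and 2 of 16 is no more than that share. Ifna12 averaged 5.01 in DM and 4.59 in WT MEFs, below the array medians. Ifnb1, the gene of interferon β, read 5.58 to 5.84 in TM, 5.80 to 5.85 in DM and 5.66 to 5.96 in WT MEFs, and the 3 ranges overlapped. Secreted interferon was not measured.

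Of 16 receptor and JAK-STAT genes, 4 were called higher in DM (25%, against 5.28% of all genes) and 2 in TM MEFs (12.5%, against 5.59% of all genes), none lower. The median log2 fold change was 0.26 in DM and 0.05 in TM MEFs. Jak2, a kinase of the type II interferon receptor, rose by 1.01 in DM MEFs with 0.53 and no call in TM MEFs. Ifnar2, a chain of the type I receptor, rose by 0.60 in DM and by 0.65 in TM MEFs. Ifnlr1, the type III receptor, rose by 0.76 and Il10rb, its partner chain, by 0.71 in DM MEFs, with no call in TM MEFs. Of 21 genes of the pathway that induces interferon, 2 were called higher in DM MEFs (9.52%, against 5.28% of all genes). In TM MEFs 1 was called higher (4.76%, against 5.59%) and 1 lower (4.76%, against 3.56%), near the shares over all genes. Ikbke, a kinase of IRF3 and IRF7, rose by 0.73 in DM and by 0.62 in TM MEFs, and Trim25, which activates RIG-I, fell by 0.62 in TM MEFs.

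Another list of interferon stimulated genes, which shares no gene with the 49, held 53 measured genes. This list too was chosen with earlier results of these data known. In DM MEFs 25 were called higher (47.2%, against 5.28% of all genes) and 3 lower (5.66%, against 5.67%), with a median of 0.55. In TM MEFs 13 were called higher (24.5%, against 5.59%) and 4 lower (7.55%, against 3.56%), with a median of 0.23. In TM against DM MEFs, 4 were called higher (7.55%, against 4.68%) and 17 lower (32.1%, against 3.61%). Gbp4, a further guanylate-binding protein, rose by 2.37 in DM and by 0.66 in TM MEFs. Phf11d rose by 1.46 in DM and by 3.86 in TM MEFs.

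Not all of that list rose. Ifi205, of the family of DNA sensors, fell by 2.22 in DM and fell by 2.38 in TM MEFs. The chemokine gene Ccl5 fell by 1.77 in DM MEFs, with -0.18 and no call in TM MEFs. Of the 11 MHC class I genes, 0 were called in DM MEFs, also at an unadjusted p under 0.05 with the fold limit, which sets nearly all calls. Over all genes 5.28% were called higher and 5.67% lower there. By adjusted p alone 3 of the 11 passed in DM MEFs, H2-M3 and Tapbp higher and Psmb10 lower, beside 7340 of all 19938 genes. In TM MEFs H2-Q4 rose by 0.87 and the immunoproteasome subunit Psmb10 fell by 0.72.

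**Figure D4:**
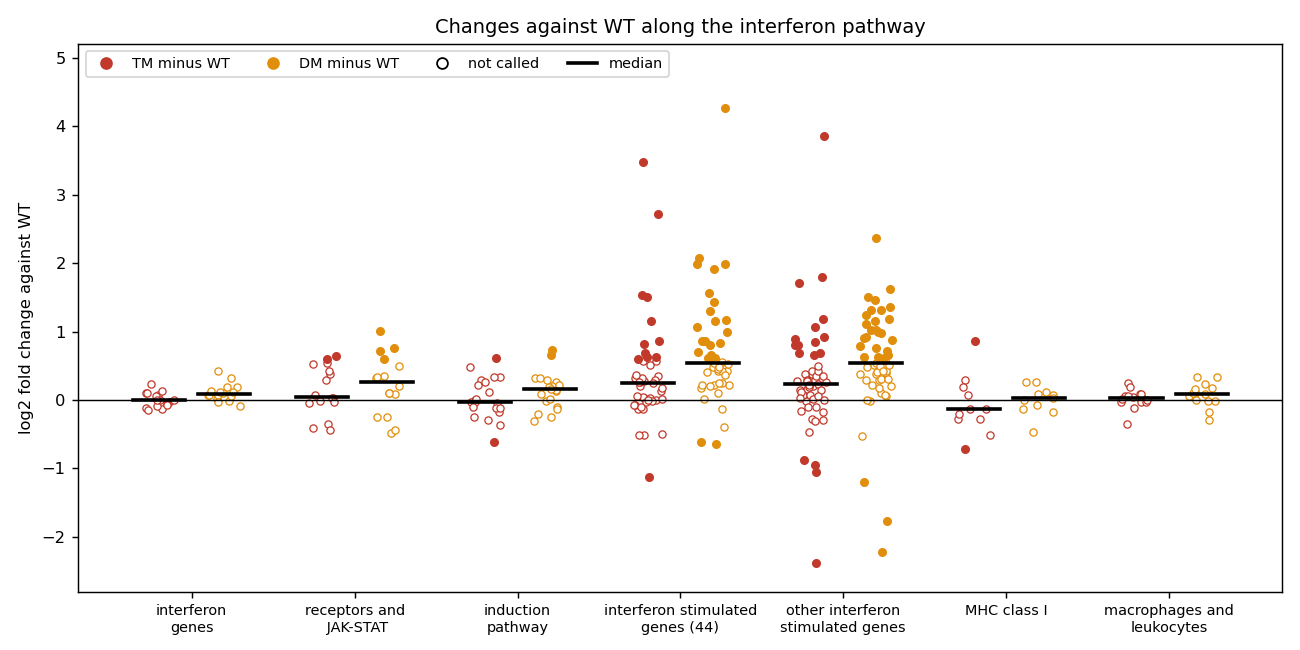
Log2 fold change against WT (y axis) of every measured gene in 7 lists, from the interferon genes to leukocyte markers, for TM (red) and DM (orange) MEFs, with called genes filled and the median as a black bar. The medians of the 44 genes and of the further interferon stimulated genes lie above 0 in both mutants, and the interferon genes and the leukocyte markers hold no filled point.

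Markers of other cell types were read on the same arrays. Of 15 markers of macrophages and leukocytes, 0 were called in any comparison. The same held at an unadjusted p under 0.05 with the fold limit, which sets nearly all calls. By adjusted p alone 4 passed in DM against WT, beside 7340 of all 19938 genes. Cd53 and Mpeg1 were higher, and Cd68 and Coro1a lower. The mean level of the 15 was 6.52 to 6.60 in TM, 6.54 to 6.66 in DM and 6.53 to 6.55 in WT MEFs. Markers of epithelium and mesothelium were divided in DM MEFs. Of 14, 7 were called higher (50%, against 5.28% of all genes) and 1 lower (7.14%, against 5.67%) there. Krt8, Krt19, Epcam, Cldn4, Cldn7 and Krt5 were not called in DM MEFs. In TM MEFs 0 were called higher (against 5.59% of all genes) and 2 lower (14.3%, against 3.56%). The mean level of the 14 was 7.26 to 7.36 in TM, 9.01 to 9.13 in DM and 7.72 to 7.74 in WT MEFs.

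The uroplakin gene Upk1b rose by 5.57 and the mesothelial transcription factor Wt1 by 4.05 in DM MEFs, whereas Msln, another mesothelial marker, fell by 1.43 in DM and fell by 3.61 in TM MEFs. Of 14 fibroblast markers, 3 were called higher (21.4%) and 3 lower (21.4%) in DM MEFs. In TM MEFs 6 were called higher (42.9%) and 1 lower (7.14%). Over all genes these shares were 5.28% and 5.67% in DM, and 5.59% and 3.56% in TM MEFs. Pdgfra fell by 1.91 in DM MEFs, and Thy1 rose by 2.93 in TM MEFs. Of 12 endothelial markers, only Flt1 was called, which rose by 1.33 in DM against WT and fell by 1.77 in TM against DM MEFs.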

How the data were processed

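Triplicate RNA samples of TM, DM and WT MEFs were hybridised to Affymetrix Gene ST arrays. The authors deposited log2 levels for each probe set on each array. RMA is named in the submitters' processing notes without a version, and it equalizes arrays, which takes out differences in their total signal. PLIER values, probe-level data and detection calls were not analysed here. The number of arrays limits the precision: the median SD of a measured gene within a genotype was 0.07 and the median SE of a fold change 0.07.

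The platform annotation gives 1 gene symbol for 21789 of the 35556 probe sets, several for 1621 and none for 12146. The brightest probe set stood for each of 999 genes with several, leaving 19938 genes. A single fit of lmFit and eBayes (limma 3.58.1, R 4.3.3) held the 9 arrays and left 6 residual degrees of freedom, with Benjamini-Hochberg adjustment over all genes. A call needed more than 1.5-fold, the fold threshold of the study's methods, at an adjusted p under 0.05. Scripts were tested on simulated data.

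The members and lists were chosen with earlier results of these data known. Values of every array are given for up to 4 genes per class with the largest changes among the calls. Of the uncalled genes all could be named. Up to 4 called genes with the largest changes were named per pathway list, and Oas1a, Oas1b and the neighbours of Sp100 and Iigp1 beside these. Promoter sequences are RefSeq's (GRCm38.p6), matched by symbol. Alternatives changed the fold limit, test, arrays in the fit, block, scaling, dim filter, variance model, array weights and probe set rule.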

Additional observations from a re-analysis of the deposited data

Results flagged for a closer look

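Oas3 was called in opposite directions in the mutants, lower in TM and higher in DM MEFs, each against WT. The difference itself, TM minus DM, was -1.82 on the log2 scale (adjusted p = 1.99e-10, limma), with all 3 TM arrays below and all 3 DM arrays above the 3 WT arrays. Groups of 3 arrays were too small to test for single arrays that stand apart.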

How the results depend on the processing

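Over the called genes, of 1080 values under other settings 1033 kept their direction and their side of the threshold, 47 fell below it and 0 reversed. Part of the 1033 could hardly have moved. Removing the fold limit can lose no call. The block, the variance models and leaving out an array of the genotype not compared left the fold changes as they were. Without a fold limit, 36 of the 44 were called higher and 3 lower in DM against WT, beside 3398 and 3942 of all 19938 genes. In TM against WT 23 were higher and 4 lower, beside 2757 and 3581 of all genes. In TM against DM MEFs 5 were higher and 31 lower, beside 3070 and 3280. Over 2-fold, 11 were higher and 0 lower in DM against WT, beside 527 and 358 of all genes. In TM against WT 5 were higher and 1 lower, beside 558 and 223. In TM against DM MEFs 0 were higher and 2 lower, beside 408 and 268. With a filter on dim probe sets, which removed Mx1, 1 was lower in DM MEFs. Median centring moved the DM median to 0.47 and left 18 genes higher in DM and 8 in TM against WT, without Usp18 and Lgals3bp in DM and without Rsad2, Psmb9 and Usp18 in TM MEFs. Other scalings raised the counts: quantile normalization gave 21 genes higher in DM and 12 in TM against WT, and cyclic loess 23 and 13, adding Rsad2, Irf7 and Trim21 in DM and Gbp7 and Tap1 in TM MEFs. Over all genes, median centring gave 908 higher in DM and 1010 in TM against WT, quantile normalization 1068 and 1109, and cyclic loess 1134 and 1217. The main fit gave 1052 and 1115. Psmb8 lost its call in TM against DM MEFs with an adjusted Student's t-test.

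Leaving out 1 array at a time gave 18 to 22 genes higher and 1 to 2 lower in DM against WT (medians 0.49 to 0.59), 11 to 12 higher and 1 to 2 lower in TM against WT (0.20 to 0.27), and 3 to 4 higher and 8 to 10 lower in TM against DM MEFs (-0.39 to -0.33). The count lower in DM was 1 without WT replicate 3 or DM replicate 2, and the count lower in TM was 2 without TM replicate 1. Deviations from the genotype mean correlated at r -0.24 to 0.17 between arrays that share a number. Between arrays of unlike number r was -0.36 to 0.25. With 3 arrays per genotype these values cannot settle whether the numbers pair the arrays. With the replicate block the counts were 20 higher and 2 lower, 11 and 1, and 4 and 9, and it changed no call.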
